A study of Mus musculus with 9 samples.

Results

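The genes described here are 10 Krüppel-like factor genes, Klf2, Klf3, Klf4, Klf6, Klf7, Klf9, Klf10, Klf12, Klf13 and Klf16, taken by name from the 17 Klf genes in a table of 24772 entries. They were chosen as the family members tied to axon growth or to related repressors, and the rule that names them uses no measured value. From background knowledge of neurons, 2 were set as growth-promoting (Klf6 and Klf7), 3 as growth-suppressing (Klf4, Klf9 and Klf13), and the other 5 were given no class. RNA had been sequenced from mouse cells labelled as retinal ganglion cells, which send their axons through the optic nerve, purified by flow cytometry. The CKO group held 3 libraries from retinas of mice with a conditional knockout of ZnT3 in amacrine cells, taken 3 days after crush of the optic nerve. ZnT3 (gene Slc30a3) is the transporter that loads zinc into synaptic vesicles, and amacrine cells are the interneurons that contact ganglion cells. The ONC group held 3 libraries from wild-type retinas 3 days after the same crush, and the Ctrl group held 3 libraries from uninjured wild-type retinas. The driver of the knockout and the age and number of animals are not given in the sources used here. The labels do not say whether libraries of the same group are from different animals, and the p-values cover no more than the spread between these 9 samples, part or all of which may be technical.

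Krüppel-like factors bind GC-rich and CACCC-containing DNA through zinc fingers at the carboxyl end of the protein, and their differing amino ends recruit either activators or corepressors such as Sin3 and CtBP. In ganglion cells the balance between members is known as a part of the developmental loss of axon growth capacity. Forced expression of Klf6 or Klf7 lengthens neurites in culture, and Klf4, Klf9 or Klf13 shortens them. Removal of Klf4 or Klf9 from ganglion cells increases axon regrowth after optic nerve crush in rodents.

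The promoters of the 3 members that were called in crushed wild-type cells are shown first, because they are the genes on which the results turn. Each is the 250 bases before the RefSeq gene start (build GRCm38.p6), read 5′ to 3′ on the strand of the gene, and the windows lie at chr13:5861239-5861488 on the plus strand for Klf6, chr19:23140976-23141225 on the plus strand for Klf9 and chr7:63938916-63939165 on the minus strand for Klf13. Capitals mark CACCC and GGGCGG, motifs of the kind that these factors and their Sp relatives bind, on either strand (GGGTG and CCGCCC on the reverse strand).
Klf6: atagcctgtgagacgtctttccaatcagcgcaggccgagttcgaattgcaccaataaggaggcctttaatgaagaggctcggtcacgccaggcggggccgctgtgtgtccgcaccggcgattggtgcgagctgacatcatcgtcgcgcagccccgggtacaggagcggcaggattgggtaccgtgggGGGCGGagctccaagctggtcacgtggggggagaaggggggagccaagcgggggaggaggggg
Klf9: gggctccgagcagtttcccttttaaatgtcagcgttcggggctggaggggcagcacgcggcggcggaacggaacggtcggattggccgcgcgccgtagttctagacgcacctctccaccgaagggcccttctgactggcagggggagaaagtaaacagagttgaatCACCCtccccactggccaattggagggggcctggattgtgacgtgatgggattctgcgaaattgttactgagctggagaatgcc
Klf13: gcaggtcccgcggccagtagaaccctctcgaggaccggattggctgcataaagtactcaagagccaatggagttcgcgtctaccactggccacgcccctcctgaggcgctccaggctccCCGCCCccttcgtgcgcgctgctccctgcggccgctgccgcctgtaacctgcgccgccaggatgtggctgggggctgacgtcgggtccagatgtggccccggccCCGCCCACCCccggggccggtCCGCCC
GC content was 64.8% for Klf6, 59.6% for Klf9 and 71.6% for Klf13, against a median of 52.4% over 32851 RefSeq promoters. Klf6 held 1 GGGCGG and no CACCC, and Klf9 held 1 CACCC and no GGGCGG. Klf13 held 3 GGGCGG matches and 1 CACCC, which overlapped a GGGCGG match. CACCC was found in 52.0% and GGGCGG in 32.7% of all promoters of this length. Of the 8 members with a promoter in the table, 6 held CACCC and 6 held GGGCGG. The AP-1 motif TGACTCA, the STAT motif TTCCNGGAA and the palindromic steroid receptor element were in 0 of the 8 windows, and in 4.46%, 0.913% and 0.0396% of all promoters. Such matches describe these letters only.

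Total counts were between 14166996 and 25571715 per library. The ONC columns of the table were numbered 3, 5 and 6, where the labels number the ONC samples 1 to 3, so they are named here by column. Columns 3 and 6 were more alike than any other pair (r = 0.995 across 15841 genes on a log2 scale, where genes are not independent replicates). The variance between them was a median of 3.56 times that of counting, against 11.4 to 15.0 times for pairs within CKO or within Ctrl, over genes with at least 20 counts in the pair. Column 5 stood apart, at 45.3 times against column 3 and 40.0 times against column 6. Its r was 0.973 to 0.974 with the CKO libraries, 0.959 to 0.961 with the Ctrl libraries and 0.954 to 0.958 with columns 3 and 6. Among the Klf genes, column 5 lay within the range of CKO for Klf6, Klf7, Klf9 and Klf2, the last at only 2 counts in column 5. The share of all genes for which this held was not computed. Because column 5 stood apart, the fold change in ONC against Ctrl of each tested Klf gene is also given with column 5 as the only ONC library. It is given as well with columns 3 and 6 summed into 1 library, where column 5 is kept beside that sum in the ONC group. For Slc30a3 the counts were 1, 4 and 2 in CKO replicates 1, 2 and 3, with 0, 1 and 0 in columns 3, 5 and 6 of ONC, and 2, 10 and 16 in Ctrl replicates 1, 2 and 3, too few to check the genotype.

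Markers of the labelled cell type were scarce. A set of 10 ganglion cell genes summed to 88.6 to 121 CPM (counts scaled to the size of the library) in CKO, 97.5 to 146 CPM in ONC and 112 to 207 CPM in Ctrl, and Pou4f1 and Pou4f2, which define these cells, were at 0 in at least 1 library. A set of 9 rod genes summed to 69736 to 71043 CPM in CKO, 72019 to 74015 CPM in ONC and 64462 to 64878 CPM in Ctrl, or 6.45% to 7.40% of all counts. The Klf values below are thus those of everything in the sorted material, in which fewer cells of a type and less RNA per cell cannot be told apart. The 7 microglia markers were each at 0 in some library and summed to at most 2.85 CPM.

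In ONC against Ctrl, 3 of the 9 Klf genes tested rose and none fell: Klf6 of the growth-promoting class, and Klf9 and Klf13 of the growth-suppressing class. Their levels were 1.70-fold, 1.55-fold and 2.72-fold those of Ctrl. In each class 1 member, Klf7 or Klf4, did not pass the test, and the difference from its class was not tested. Klf2 was below the expression filter and was not tested. Over all 15841 genes tested, 13.0% were called higher and 12.8% lower in this comparison (25.8% together), at an edgeR adjusted p under 0.05. The ONC and Ctrl libraries did not overlap for 4 of the 9 Klf genes, Klf6, Klf9 and Klf13 above and Klf10 below, and for 18.3% of all genes above and 21.2% below (39.5% together). The median log2 fold change was 0.52 over the 9 Klf genes, which is the value of Klf4, and -0.04 over all genes. The median of the 9 was 0.11 with column 5 alone, 0.27 without column 6, 0.17 without Ctrl replicate 1 and 0.21 without Ctrl replicate 2. It was 0.75 without column 5, 0.69 without Ctrl replicate 3 and 0.60 without column 3, and 0.053 over the 7 genes that a stricter filter left. The fit without column 5, whose ONC spread is that of columns 3 and 6 only, called 5 of the 9 Klf genes and 7644 of 16487 genes. Its log2 fold changes were 1.03 for Klf6, 0.79 for Klf9, 1.55 for Klf13, 2.25 for Klf16 and -0.85 for Klf10.

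**Figure D1:**
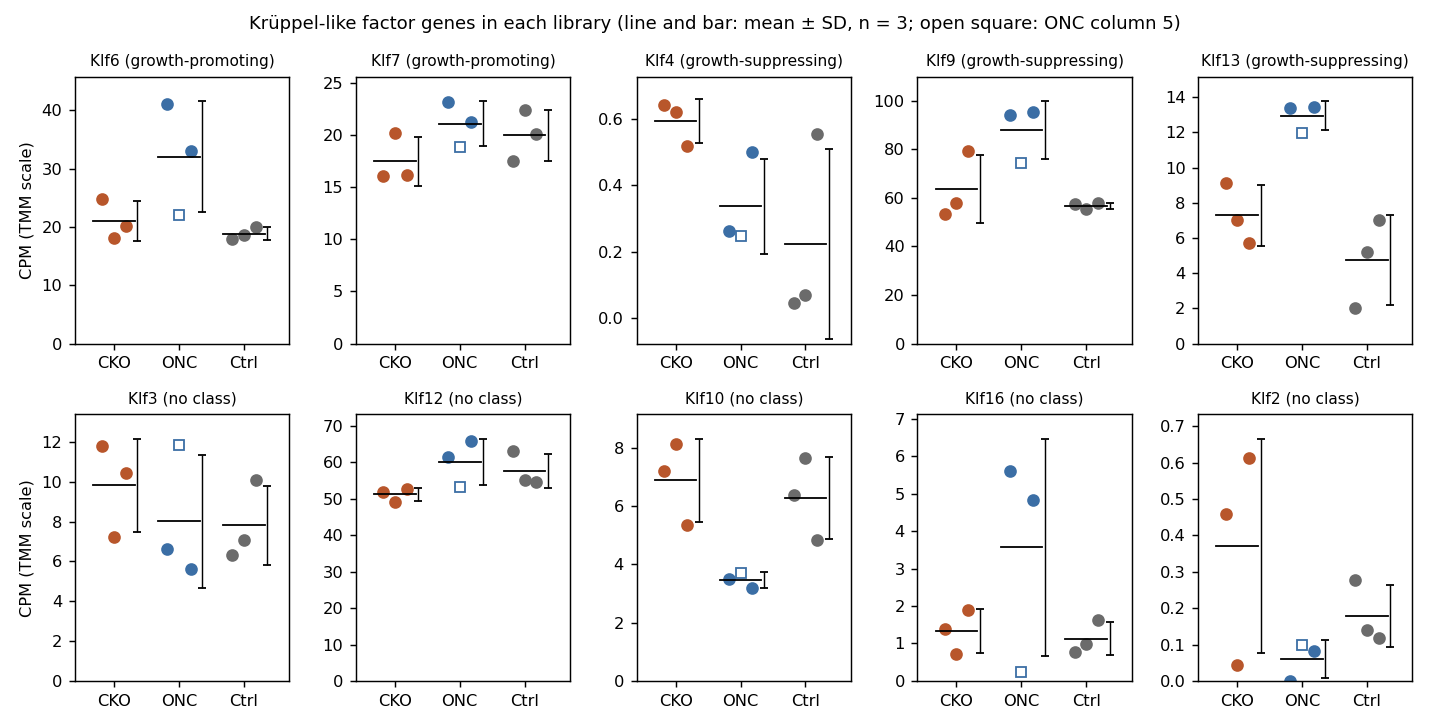
Level of each of the 10 Klf genes in every library, as CPM on the TMM scale, for CKO, ONC and Ctrl; points are libraries, the open square is ONC column 5, and the line and bar are the mean ± SD (n = 3). Klf6, Klf9 and Klf13 are higher in all 3 ONC libraries than in any Ctrl library, with column 5 the lowest of the 3 ONC libraries in each, and Klf10 is lower in all 3 ONC libraries than in any other.

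Klf6 (ENSMUSG00000000078, GRCm38 chr13:5861482-5870394, plus strand) is an activator whose zebrafish counterpart is needed for optic axon regrowth. It had 24.8, 18.1 and 20.1 CPM in CKO replicates 1, 2 and 3, 41.0, 22.1 and 33.1 CPM in ONC columns 3, 5 and 6, and 17.96, 18.6 and 20.1 CPM in Ctrl replicates 1, 2 and 3. All 3 ONC libraries were above all 3 Ctrl libraries, although column 5 was only slightly so and lay inside the CKO range. In ONC against Ctrl the log2 fold change was 0.76 ± 0.22 (SE; 95% interval 0.27 to 1.25; edgeR adjusted p 0.0284). With column 5 as the only ONC library it was 0.25 (adjusted p 0.588), and with columns 3 and 6 summed it was 0.71 (adjusted p 0.0859), so the call was lost in both. The call was also lost without column 3, without column 6 and without each Ctrl library in turn, and it held in 12 of 19 other analyses.

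Klf7 (ENSMUSG00000025959, chr1:64029447-64122282, minus strand) is the closest relative of Klf6 and an activator of neurotrophin receptor genes in sensory neurons. Klf7 had 16.0, 20.1 and 16.2 CPM in CKO replicates 1, 2 and 3, 23.1, 18.8 and 21.2 CPM in ONC columns 3, 5 and 6, and 17.5, 22.3 and 20.04 CPM in Ctrl replicates 1, 2 and 3. The 3 groups overlapped throughout. The log2 fold change in ONC against Ctrl was 0.08 ± 0.18 (adjusted p 0.780), with a 95% interval of -0.32 to 0.48. It was -0.057 with column 5 alone (adjusted p 0.926) and 0.10 with columns 3 and 6 summed (adjusted p 0.811). Klf6 made up 59.6% ± 5.09 of the summed Klf6 and Klf7 CPM in ONC and 48.7% ± 2.86 in Ctrl (SD, n = 3 each), a share that is not corrected for transcript length.

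Klf9 (ENSMUSG00000033863, chr19:23141226-23168134, plus strand) is a Sin3-recruiting repressor that glucocorticoid and thyroid hormone induce in neurons. It had 53.3, 57.9 and 79.4 CPM in CKO replicates 1, 2 and 3, 94.1, 74.2 and 95.2 CPM in ONC columns 3, 5 and 6, and 57.3, 55.3 and 57.7 CPM in Ctrl replicates 1, 2 and 3. The Ctrl libraries differed little (SD 1.28 CPM), and every ONC library was above them, with column 5 again inside the CKO range. The log2 fold change in ONC against Ctrl was 0.63 ± 0.17 (95% interval 0.27 to 0.99; edgeR adjusted p 0.0187). It was 0.41 with column 5 alone (adjusted p 0.245) and 0.63 with columns 3 and 6 summed (adjusted p 0.0546), both short of the threshold. The call was also lost without column 3, column 6 or Ctrl replicate 2, and it held in 14 of 19 other analyses.

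Klf13 (ENSMUSG00000052040, chr7:63886351-63938915, minus strand) is a relative of Klf9 that recruits Sin3a and shortens neurites in culture. Klf13 had 9.12, 7.01 and 5.71 CPM in CKO replicates 1, 2 and 3, 13.4, 11.99 and 13.5 CPM in ONC columns 3, 5 and 6, and 2.03, 5.18 and 7.04 CPM in Ctrl replicates 1, 2 and 3. Here column 5 was close to the other ONC columns, and all 3 stood above every CKO and Ctrl library. The log2 fold change in ONC against Ctrl was 1.44 ± 0.38 (95% interval 0.61 to 2.28; edgeR adjusted p 0.0185). It stayed at 1.36 with column 5 alone, where a single ONC library gave an adjusted p of 0.130, and the call was kept with columns 3 and 6 summed. Without column 6 the adjusted p was 0.0523, and the call held in 17 of 19 other analyses. All of these rest on counts. The transcript length implied for Klf13 was shorter in Ctrl (1.67 to 2.26 kb) than in CKO (2.88 to 3.52 kb). By the deposited FPKM values, which are scaled to length, Klf13 was not higher in CKO than in Ctrl (-0.18 on the log2 scale). The ONC FPKM values were not used, so the rise in ONC was not tested per length.

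Klf4 (ENSMUSG00000003032, chr4:55527143-55532466, minus strand), a suppressor of axon growth and a binding partner of Stat3, was near the detection limit. Its counts were 14, 14 and 11 in CKO replicates 1, 2 and 3, with 6, 5 and 12 in columns 3, 5 and 6 of ONC, and 1, 1 and 14 in Ctrl replicates 1, 2 and 3. The 3 CKO libraries were above the 3 ONC libraries in CPM, while Ctrl replicate 3 lay among them and the other 2 Ctrl libraries below. Its log2 fold change was 0.52 ± 0.95 in ONC against Ctrl (adjusted p 0.717) and 0.80 in CKO against ONC (adjusted p 0.607). The 95% interval in ONC against Ctrl, -1.55 to 2.59, leaves changes of either sign, so a difference was not detectable at this depth. The value was 0.11 with column 5 alone (adjusted p 0.980) and 0.51 with columns 3 and 6 summed (adjusted p 0.809).

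**Figure D2:**
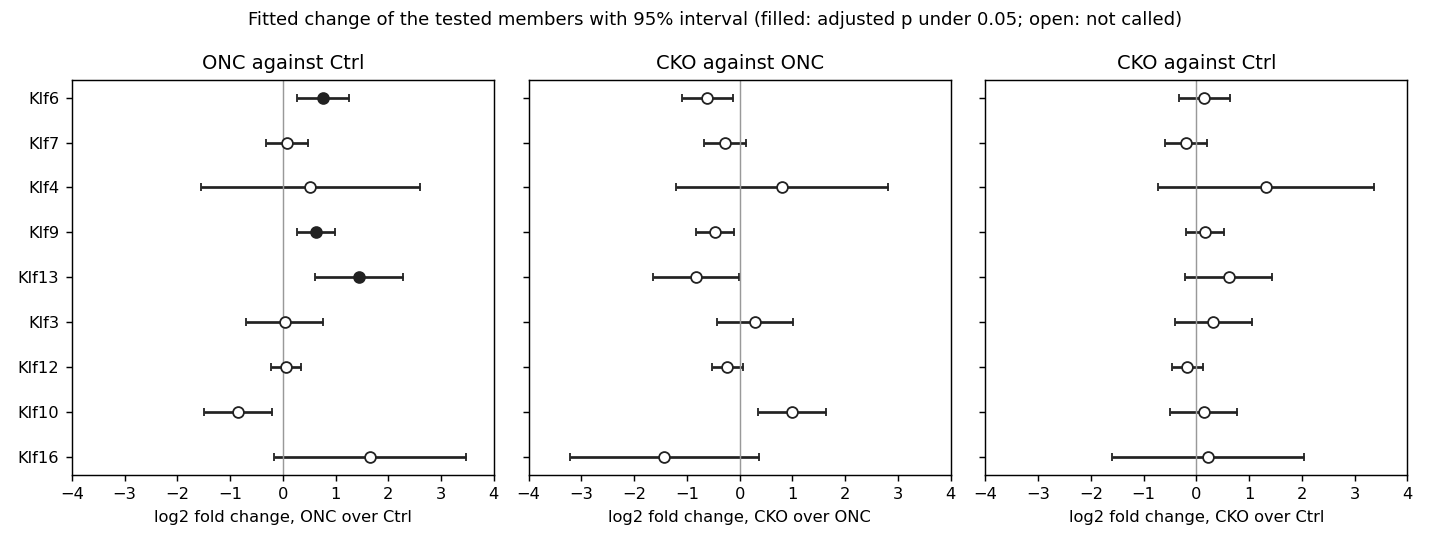
Fitted log2 fold change (x axis) of the 9 tested Klf genes with its 95% interval in ONC against Ctrl, CKO against ONC and CKO against Ctrl; filled points are called at an adjusted p under 0.05. The 3 filled points are Klf6, Klf9 and Klf13 in ONC against Ctrl, and the intervals of Klf4 and Klf16 are the widest.

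The 5 genes without a class gave no call in ONC against Ctrl. Klf10 (ENSMUSG00000037465, chr15:38291463-38300706, minus strand), an early gene of TGF-beta signalling, had 7.20, 8.12 and 5.33 CPM in CKO replicates 1, 2 and 3, 3.51, 3.70 and 3.17 CPM in ONC columns 3, 5 and 6, and 6.37, 7.63 and 4.82 CPM in Ctrl replicates 1, 2 and 3. All ONC libraries, column 5 included, were below all CKO and all Ctrl libraries. The log2 fold change in ONC against Ctrl was -0.85 ± 0.29 (95% interval -1.50 to -0.21), and the edgeR adjusted p of 0.0513 missed the threshold. DESeq2 gave an adjusted p of 0.0267, and Klf10 passed in 4 of 19 other analyses. It did not pass with column 5 alone (-0.73, adjusted p 0.367) or with columns 3 and 6 summed (-0.78, adjusted p 0.170). Klf10 was the only one of the 9 tested genes with a negative fold change in ONC against Ctrl.

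Klf16 (ENSMUSG00000035397, chr10:80567124-80577321, minus strand), a Sin3a-recruiting repressor, had a coefficient of variation of 81.3% among the ONC libraries, the highest of the 9 tested Klf genes in that group. Its counts were 30, 16 and 40 in CKO replicates 1, 2 and 3, with 128, 5 and 116 in columns 3, 5 and 6 of ONC, and 17, 14 and 41 in Ctrl replicates 1, 2 and 3. Columns 3 and 6 were above every other library and column 5 was below every other library. The log2 fold change in ONC against Ctrl was 1.65 ± 0.83 (adjusted p 0.161). It was -2.15 with column 5 alone (adjusted p 0.302), 1.36 with columns 3 and 6 summed (adjusted p 0.36) and 2.25 without column 5 (adjusted p 0.00297), so its direction was set by which ONC columns were used.

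Klf3 and Klf12 are repressors that recruit CtBP. Klf3 (ENSMUSG00000029178, chr5:64803388-64832901, plus strand) had 11.8, 7.23 and 10.5 CPM in CKO replicates 1, 2 and 3, 6.62, 11.8 and 5.63 CPM in ONC columns 3, 5 and 6, and 6.33, 7.07 and 10.1 CPM in Ctrl replicates 1, 2 and 3. Its groups overlapped, with column 5 the highest of the 9 libraries and column 6 the lowest, and its log2 fold change in ONC against Ctrl was 0.03 ± 0.33 (adjusted p 0.955). The Klf3 value was 0.62 with column 5 alone (adjusted p 0.359) and 0.24 with columns 3 and 6 summed (adjusted p 0.703). Klf12 (ENSMUSG00000072294, chr14:99870632-100284679, minus strand) spans 414 kb and had 51.8, 49.3 and 52.8 CPM in CKO replicates 1, 2 and 3, 61.5, 53.3 and 65.8 CPM in ONC columns 3, 5 and 6, and 63.1, 55.3 and 54.5 CPM in Ctrl replicates 1, 2 and 3. Its ONC and Ctrl libraries overlapped and its CKO libraries were below both, with a log2 fold change of 0.06 ± 0.13 in ONC against Ctrl (adjusted p 0.761). For Klf12 this was -0.087 with column 5 alone (adjusted p 0.798) and 0.08 with columns 3 and 6 summed (adjusted p 0.782). Klf2 (ENSMUSG00000055148, chr8:72319033-72321656, plus strand), best known from endothelium, gave 10, 1 and 13 counts in CKO replicates 1, 2 and 3, with 0, 2 and 2 in columns 3, 5 and 6 of ONC, and 6, 2 and 3 in Ctrl replicates 1, 2 and 3. At 0 counts column 3 allowed up to 0.139 CPM, by a limit of 3 counts that covers counting error only.

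Some sets of markers of other cells and of dissociation also differed between the groups, in differing directions. A set of 7 Müller glia markers summed to 908 to 1026 CPM in CKO, 1381, 779 and 1353 CPM in ONC columns 3, 5 and 6, and 622 to 662 CPM in Ctrl, and 6 of the 7 were called higher in ONC than in Ctrl. A set of 12 dissociation and immediate early genes summed to 440 to 503 CPM in CKO, 708, 455 and 682 CPM in ONC columns 3, 5 and 6, and 357 to 407 CPM in Ctrl, with 7 called higher and 1 lower in ONC than in Ctrl. Both sums are highest in columns 3 and 6, as are Klf6, Klf9, Klf13 and Klf16, while the other Klf genes are not. The sum of the rod genes was also highest in these columns, at 74015 CPM in column 3 and 73267 CPM in column 6. The share of all genes that are highest in columns 3 and 6 was not computed. The 8 amacrine markers went the other way, at 113 to 130 CPM in CKO, 158 to 196 CPM in ONC and 423 to 450 CPM in Ctrl. A set of 7 endothelial markers, a cell type in which Klf2 and Klf4 are abundant, summed to 30.7 to 35.98 CPM in CKO, 24.8 to 36.6 CPM in ONC and 23.2 to 26.4 CPM in Ctrl, with Cdh5, Cldn5, Tie1 and Tek at 0 in at least 1 library. The 4 astrocyte markers, of which Pax2 was at 0 in some library, summed to 12.4 to 14.4 CPM in CKO, 3.93 to 7.76 CPM in ONC and 2.89 to 3.33 CPM in Ctrl, without overlap. Of the 3 astrocyte markers tested, 1 was called higher in CKO than in ONC, 2 in CKO than in Ctrl and 1 in ONC than in Ctrl. The 5 pericyte markers, 4 of them at 0 in some library, summed to 2.10 to 5.56 CPM in CKO, 0.0948 to 1.87 CPM in ONC and 1.55 to 4.07 CPM in Ctrl, and none was called. The part of these cells and of dissociation in the Klf values was not tested.

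The sums of the promoting and of the suppressing genes were both highest in ONC. Klf6 and Klf7 summed to 38.5 ± 2.27 CPM in CKO, 53.1 ± 11.7 CPM in ONC and 38.8 ± 2.99 CPM in Ctrl (SD, n = 3 each). Klf4, Klf9 and Klf13 summed to 71.4 ± 12.4 CPM in CKO, 101.1 ± 12.7 CPM in ONC and 61.7 ± 3.12 CPM in Ctrl, and Klf9 made up most of each sum. The suppressing sum was higher in every ONC library than in every Ctrl library, while the promoting sum of column 5 lay within Ctrl. The ratio of the promoting to the suppressing sum within a library was 0.424 to 0.648 in CKO, 0.473 to 0.595 in ONC and 0.596 to 0.676 in Ctrl. Every ONC library had a lower ratio than every Ctrl library, but the highest ONC ratio, 0.595, and the lowest Ctrl ratio, 0.596, almost touched. The CKO range held both of these values, while the highest Ctrl ratio, 0.676, was above every CKO library. The ratio of Klf6 to Klf9 alone was 0.344 ± 0.109 in CKO, 0.3603 ± 0.070 in ONC and 0.333 ± 0.018 in Ctrl, differences smaller than their spread. These sums are counts uncorrected for length and carry no test.

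In CKO against ONC, which asked whether loss of ZnT3 from amacrine cells altered the Klf genes of crushed retinas, 0 of the 9 tested Klf genes were called by edgeR. Over all genes, 0.587% were called higher and 0.278% lower (0.865% together), so few calls were made anywhere in this comparison. At an unadjusted p under 0.05 there were 4 of the 9 Klf genes, against 27.2% of all genes, and DESeq2 called 1, Klf10, against 14.3% of all genes. Klf10 averaged 6.88 ± 1.42 CPM in CKO and 3.46 ± 0.270 CPM in ONC, with a log2 fold change of 0.99 ± 0.29 (95% interval 0.35 to 1.63; edgeR adjusted p 0.0771; DESeq2 adjusted p 0.0194). Klf6 averaged 21.03 ± 3.41 CPM in CKO and 32.1 ± 9.50 CPM in ONC (fitted log2 difference -0.61 ± 0.22, with an adjusted p of 0.114 from edgeR). Klf9 averaged 63.5 ± 14.0 CPM in CKO and 87.9 ± 11.8 CPM in ONC (-0.47 ± 0.17; adjusted p 0.107), and Klf13 averaged 7.28 ± 1.72 CPM in CKO and 12.9 ± 0.825 CPM in ONC (-0.83 ± 0.37; adjusted p 0.177). The libraries of the 2 groups did not overlap for 4 of the 9 genes, Klf4, Klf10, Klf12 and Klf13, a feature of 26.2% of all genes. With column 5 as the only ONC library the log2 differences were 0.89 for Klf10, -0.081 for Klf6, -0.23 for Klf9 and -0.73 for Klf13, and with columns 3 and 6 summed they were 0.92 for Klf10, -0.55 for Klf6, -0.46 for Klf9 and -0.85 for Klf13, none of them called.

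This comparison turned on column 5. Without it, 5 Klf genes were called between CKO and ONC columns 3 and 6: Klf6 (log2 fold change -0.86, adjusted p 0.00147), Klf9 (-0.62, adjusted p 0.00408), Klf12 (-0.36, adjusted p 0.0261) and Klf16 (-2.02, adjusted p 0.00732) were lower in CKO and Klf10 (0.998, adjusted p 0.0289) was higher. These are 5 of the 9 Klf genes tested, and the same analysis called 6049 of 16487 genes, against 137 of 15841 with column 5 included. With column 5 as the only ONC library, none of the Klf genes was called and 9 genes were called in all. In the analysis without column 5, columns 3 and 6, the pair closest to each other, give the only ONC spread in the model.

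CKO against Ctrl combined crush with loss of ZnT3, and their effects cannot be told apart, since no uninjured knockout was in the table. None of the 9 tested Klf genes was called by edgeR or DESeq2, and none had an unadjusted p under 0.05. Over all genes edgeR called 4.32% higher and 4.58% lower (8.89% together), DESeq2 called 14.5%, and 23.9% had an unadjusted p under 0.05. Klf6 had a log2 fold change of 0.15 (adjusted p 0.740), Klf9 of 0.16 (adjusted p 0.615) and Klf13 of 0.61 ± 0.38 (95% interval -0.21 to 1.44; adjusted p 0.362). The Klf13 value was 0.27 without Ctrl replicate 1 and 1.04 without Ctrl replicate 3. Its interval is wide, and a p that misses the threshold does not show that the groups were alike. Klf4 had the highest fitted value, 1.32 ± 0.94 (adjusted p 0.435), which rested on 2 Ctrl libraries of 1 count each and was 0.88 without Ctrl replicate 1 and 3.26 without Ctrl replicate 3. The groups did not overlap for 1 of the 9 genes, Klf12, which averaged 51.3 ± 1.83 CPM in CKO and 57.6 ± 4.75 CPM in Ctrl (fitted log2 difference -0.17, adjusted p 0.487), a feature of 35.7% of all genes. CKO against Ctrl shares its libraries with the other 2 comparisons, so the 3 sets of fold changes are not independent.

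**Figure D3:**
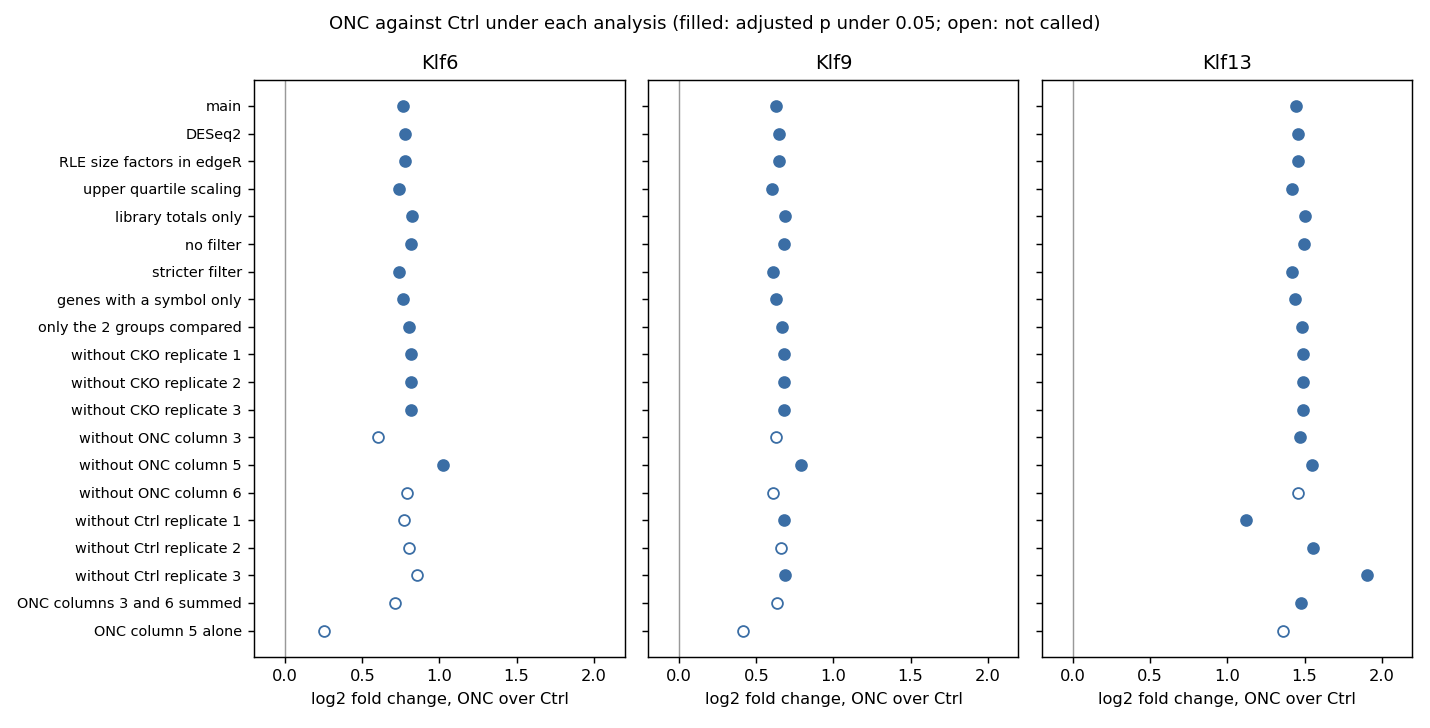
Log2 fold change (x axis) of Klf6, Klf9 and Klf13 in ONC against Ctrl under the analysis reported and 19 others; filled points have an adjusted p under 0.05. All points lie to the right of 0, and for Klf6 and Klf9 the lowest are those with ONC column 5 alone, at 0.25 and 0.41.

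Between genes, levels can be set side by side only per transcript length, for which the deposited FPKM values of CKO and Ctrl were used. By FPKM Klf12 was highest of the 10, at 34.4 ± 1.63 FPKM in CKO and 44.5 ± 12.3 FPKM in Ctrl, followed by Klf9 at 19.8 ± 4.46 FPKM in CKO and 18.2 ± 0.290 FPKM in Ctrl. Klf6 came next, at 5.91 ± 0.952 FPKM in CKO and 5.25 ± 0.559 FPKM in Ctrl. Klf7, Klf10, Klf13 and Klf3 lay together between 2.17 and 2.69 FPKM on average in CKO and between 1.62 and 3.57 FPKM in Ctrl, and most neighbours in that order overlapped, except that Klf3 was below Klf7 and Klf10 in all Ctrl libraries. Klf16 averaged 0.510 FPKM in CKO and 0.443 FPKM in Ctrl, while Klf2 and Klf4 averaged at most 0.217 FPKM in either group. The place of Klf12 depended on the length used. Per kb of annotated exon, Klf9 was above Klf12 in every library, at 13.2 ± 2.90 CPM per kb in CKO, 18.2 ± 2.45 in ONC and 11.8 ± 0.265 in Ctrl, while Klf12 was at 7.34 ± 0.262 in CKO, 8.62 ± 0.908 in ONC and 8.25 ± 0.680 in Ctrl. Within the classes, by FPKM the suppressor Klf9 stood above the promoters Klf6 and Klf7 in all 6 CKO and Ctrl libraries, and the suppressor Klf4 stood below them. The suppressor Klf13 was below Klf6 in each of these libraries and overlapped Klf7. By mean CPM over all genes in the table, Klf9 ranked 3126th and Klf4 15639th.

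**Figure D4:**
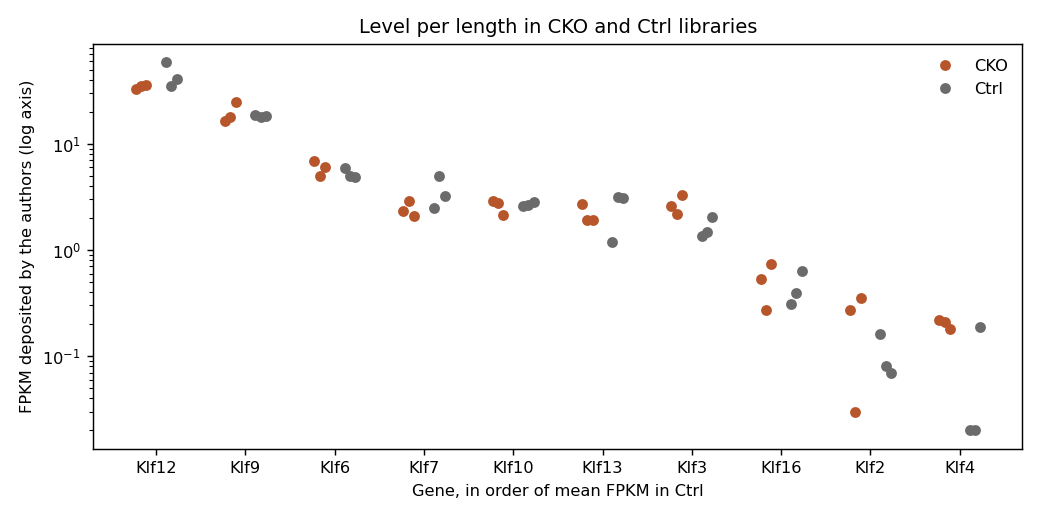
Deposited FPKM of the 10 Klf genes in the 3 CKO and 3 Ctrl libraries on a log axis, in order of the Ctrl mean. Klf12 and Klf9 lie at 16.54 FPKM or more in every library, and Klf2 and Klf4 at 0.35 FPKM or less.

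For some genes, count and FPKM gave different answers. Klf13 was 0.62 higher in CKO than in Ctrl on the log2 scale by mean CPM and 0.18 lower by mean FPKM (-0.18). A count divided by its FPKM gives the transcript length that the authors' tool assumed in that library, and this length was computed after scaling every library to the same median over 11075 genes. For Klf13 it was 3.26, 3.52 and 2.88 kb in CKO replicates 1, 2 and 3 and 1.70, 1.67 and 2.26 kb in Ctrl replicates 1, 2 and 3, or 1.72 times as long in CKO, with no overlap. For Klf3 it was 4.33, 3.19 and 3.09 kb in CKO and 4.68, 4.84 and 4.89 kb in Ctrl, or 0.736 times as long in CKO. Klf9 served as a contrast, with 3.08 to 3.11 kb in CKO and 3.10 to 3.12 kb in Ctrl. Of 7 Klf genes with a value, Klf13 and Klf3 had groups that did not overlap and differed by more than 1.2 times, where 5.26% of 11075 genes did (3.02% longer and 2.25% shorter in CKO). The annotation lists 4 Klf13 transcripts of 0.487 to 6.396 kb and 9 Klf3 transcripts of 0.298 to 5.221 kb, so the genes have isoforms of differing length. For Klf12 the assumed length was 1.36 to 1.52 kb in CKO and 1.09 to 1.59 kb in Ctrl, against 6985 bases of annotated exon sequence, so its FPKM rests on a short transcript. Which isoform was present was not tested, since the table holds 1 value per gene.

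**Figure D5:**
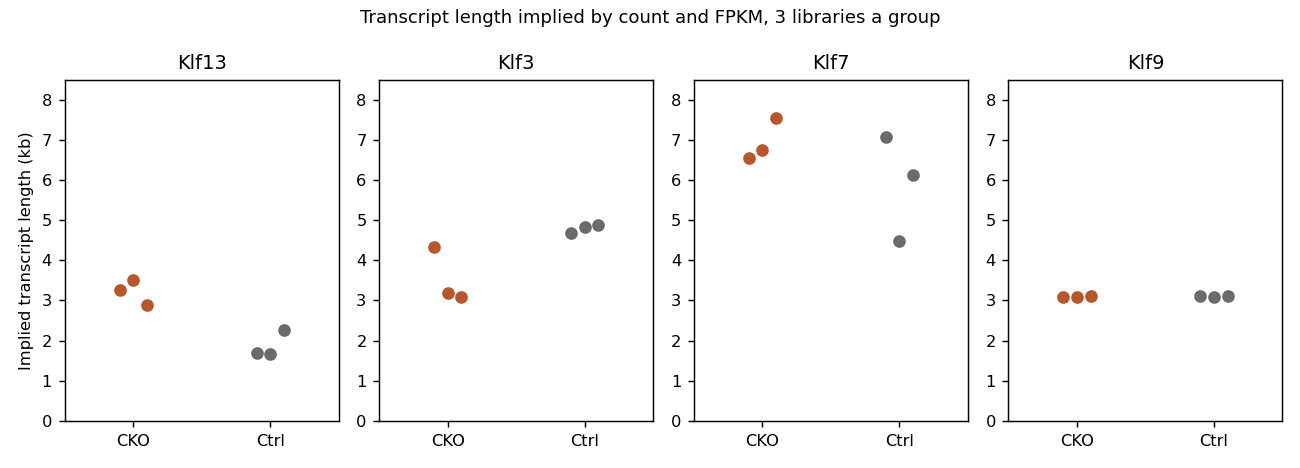
Transcript length in kb implied by count and FPKM for Klf13, Klf3, Klf7 and Klf9 in the 3 CKO and 3 Ctrl libraries. The CKO libraries lie above the Ctrl libraries for Klf13 and below them for Klf3, and the groups coincide for Klf9.

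The genes whose levels over the 9 libraries were closest to those of 4 members were sought by the root mean square difference of centred log2 CPM, among about 9080 candidates. Klf6 was closest to Tpra1 (0.06), Cox10 (0.08) and Mfhas1 (0.08), against a median of 0.46 over candidates. Klf9 was closest to Cdan1 (0.08), Sort1 (0.08) and Dnajc5 (0.10), against a median of 0.41, and Klf7 to Parp4 (0.08), Ywhag (0.08) and Utp14a (0.09), against a median of 0.36. Klf4 had no neighbour as near, with Max at 0.19, Elovl5 at 0.20 and Mrps9 at 0.20. Closeness over 9 libraries is a description that includes any shared effect of the columns named above.

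Among the rest of the family, 16 further Klf and Sp genes, 8 passed the filter, and 3 fell in ONC against Ctrl while none rose, where 12.8% of all genes fell and 13.0% rose. Sp4, a factor of neurons, averaged 108 ± 20.7 CPM in ONC and 178 ± 3.15 CPM in Ctrl (fitted log2 difference -0.72 ± 0.14, with an adjusted p of 0.00589 from edgeR), and its call was lost with column 5 alone (-0.41, adjusted p 0.0637). Klf11, a Sin3-recruiting relative of Klf10, gave 10, 1 and 6 counts in columns 3, 5 and 6 of ONC and 106, 43 and 29 in Ctrl replicates 1, 2 and 3 (fitted log2 difference -3.57 ± 0.81, adjusted p 0.0101). Klf1, the erythroid factor, gave 1, 0 and 0 counts in columns 3, 5 and 6 of ONC and 39, 12 and 35 in Ctrl replicates 1, 2 and 3 (adjusted p 0.00350). These low counts of Klf1 and Klf11 separated ONC from Ctrl in every library, column 5 included. The median log2 fold change of the 8 genes was -0.27 in ONC against Ctrl. By edgeR 0 of the 8 were called in CKO against ONC, where 3 had an unadjusted p under 0.05 (27.2% of all genes) and DESeq2 called 3 (14.3% of all genes), and 0 in CKO against Ctrl, where 0 had such a p and DESeq2 called 0.

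Of 9 corepressor genes, 2 rose in ONC against Ctrl and none fell, where 13.0% of all genes rose and 12.8% fell. In either direction, 6 of the 9 had an unadjusted edgeR p under 0.05, against 39.7% of all genes. DESeq2 called 4 of the 9, against 32.6% of all genes. Sin3b, a scaffold of histone deacetylase complexes, averaged 98.4 ± 7.95 CPM in ONC and 61.2 ± 6.40 CPM in Ctrl (fitted log2 difference 0.68 ± 0.13, with an adjusted p of 0.00469 from edgeR), and it was called in all 19 other analyses. Ctbp1, which Klf3 and Klf12 recruit, averaged 56.0 ± 15.1 CPM in ONC and 23.8 ± 6.12 CPM in Ctrl (1.23 ± 0.23; adjusted p 0.00469), and its call was lost with column 5 alone (0.72, adjusted p 0.105). Sin3a was not called (0.57 ± 0.22; adjusted p 0.0721). In CKO against Ctrl, 1 of the 9 rose, Sin3b, at 91.7 ± 4.41 CPM in CKO and 61.2 ± 6.40 CPM in Ctrl (adjusted p 0.0172), a call lost without any single CKO library and without Ctrl replicate 1 or 2. In CKO against ONC edgeR called 0 of the 9 and DESeq2 called 2, and 3 had an unadjusted p under 0.05, where 14.3% and 27.2% of all genes did. The median log2 fold change of the 9 genes in ONC against Ctrl was 0.43.

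Of 14 partners and reported targets of the family, 12 were tested, and in ONC against Ctrl 3 rose and 2 fell, where 13.0% of all genes rose and 12.8% fell. Stat3, the cytokine-activated factor that Klf4 binds, averaged 58.6 ± 12.6 CPM in ONC and 17.9 ± 3.88 CPM in Ctrl (fitted log2 difference 1.71 ± 0.21, with an adjusted p of 0.00110 from edgeR). In CKO, Stat3 averaged 44.7 ± 3.49 CPM, and it rose against Ctrl there too (1.32 ± 0.21; adjusted p 0.00416). Tuba1a, a growth-associated tubulin, averaged 488 ± 27.0 CPM in CKO, 540 ± 73.6 CPM in ONC and 308 ± 12.5 CPM in Ctrl, and it rose in ONC against Ctrl (0.81 ± 0.12; adjusted p 0.00208) and in CKO against Ctrl (0.67 ± 0.12; adjusted p 0.00815). Both genes were called in every other analysis of these comparisons, column 5 alone included.

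Mapk10, the neuronal kinase JNK3 through which Klf9 is reported to suppress axon growth, went the other way. It averaged 10.3 ± 0.652 CPM in CKO, 13.4 ± 1.48 CPM in ONC and 20.8 ± 0.851 CPM in Ctrl, with no overlap between Ctrl and the crushed groups. Mapk10 fell in CKO against Ctrl (fitted log2 difference -1.01 ± 0.18, with an adjusted p of 0.00724 from edgeR), a call kept in all 20 other analyses. It also fell in ONC against Ctrl (-0.63 ± 0.18; adjusted p 0.0251), a call kept in 8 of 19 and lost with column 5 alone (-0.79, adjusted p 0.108) and with columns 3 and 6 summed (-0.62, adjusted p 0.0955). Dusp14, a phosphatase reported to act downstream of Klf9, was not called. Its level was 130 ± 0.967 CPM in CKO, 121 ± 17.1 CPM in ONC and 94.1 ± 10.2 CPM in Ctrl. The fitted log2 difference was 0.47 ± 0.14 in CKO against Ctrl (edgeR adjusted p 0.0558) and 0.37 ± 0.14 in ONC against Ctrl (edgeR adjusted p 0.0670). Cdkn1b rose in ONC against Ctrl (0.62 ± 0.15; adjusted p 0.0140), a call kept in 17 of 19 other analyses and lost without column 6 and with column 5 alone (0.40, adjusted p 0.248). Nos3 fell (-1.04 ± 0.33; adjusted p 0.0388), a call kept in 7 of 19 and lost with column 5 alone (-0.60, adjusted p 0.461) and with columns 3 and 6 summed (-0.88, adjusted p 0.148). In CKO against ONC edgeR called 0 of the 12 and DESeq2 called 1, which was also the number with an unadjusted p under 0.05, against 14.3% and 27.2% of all genes. The median log2 fold change of the 12 genes in ONC against Ctrl was 0.35.

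Of 10 genes of the hormone inputs to Klf9, glucocorticoid, mineralocorticoid and thyroid receptors with their usual target genes, 0 were called in any comparison by edgeR, while DESeq2 called 1 in each comparison (32.6% of all genes in ONC against Ctrl, 14.3% in CKO against ONC, 14.5% in CKO against Ctrl). At an unadjusted p under 0.05 there were 4 in ONC against Ctrl, near the 39.7% of all genes, and 2 in each CKO comparison, near the 27.2% of all genes against ONC and 23.9% against Ctrl. Their median log2 fold change in ONC against Ctrl was 0.13. The receptor gene Nr3c1 averaged 107 ± 7.60 CPM in CKO, 107 ± 17.1 CPM in ONC and 86.3 ± 6.62 CPM in Ctrl (ONC against Ctrl 0.31 ± 0.14; adjusted p 0.124). The receptor target Fkbp5 averaged 11.1 ± 3.03 CPM in CKO, 14.6 ± 5.62 CPM in ONC and 7.92 ± 1.27 CPM in Ctrl (0.89 ± 0.32; adjusted p 0.0622). The receptor target Tsc22d3 averaged 47.8 ± 9.96 CPM in CKO, 37.2 ± 10.2 CPM in ONC and 35.7 ± 9.30 CPM in Ctrl (0.06 ± 0.24; adjusted p 0.871), with groups that overlapped.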

How the data were processed

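RNA was amplified with a whole-transcriptome kit and made into 9 libraries by tagmentation, per the labels' protocols. Tagmentation leaves no record of strand, and the spans of Klf3, Klf7, Klf12 and Klf13 overlap genes on the opposite strand. Reads could not be told apart by strand where exons are shared, and whether exons are shared was not tested. E030018B13Rik, which overlaps Klf13, had a total count of 1. Trimmomatic 0.36 and the builds GRCm38 and mm10 were used, per the submitters' processing notes. The aligner, the counter and the gene models are not given in the sources used here. The deposited expected counts were not normalized, per the file headers, and 68.3% to 73.1% of them were whole numbers. The FPKM values were scaled to length and depth by the authors, per the file headers. The table had 18 value columns, of which 3 (ONC FPKM) were left out. The ONC count columns are known only by group, and they were used as ONC libraries. A missing match to the labels thus does not explain why ONC FPKM was left out, and ONC levels by FPKM were not examined.

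The counts were rounded and fitted with edgeR 4.0.16 in R 4.3.3, using filterByExpr by group (15841 genes), TMM scaling and 1 quasi-likelihood model over all 9 libraries without covariates. Called genes are those whose p, adjusted over all genes tested by Benjamini-Hochberg, was under 0.05, at any fold. CPM of genes are on the TMM scale and marker sums are by library totals. Symbols and positions came from GENCODE M21 (21956 of 21970 Ensembl genes matched), and promoters from RefSeq (8 of 10 members matched). The code was tested on simulated data. Other analyses used DESeq2 1.42.0, other scalings, filters and gene sets, the 2 groups alone, each library left out, and the ONC columns summed or reduced to column 5. All 10 members are named, with the list genes called and the 3 nearest genes of 4 members, and Sin3a, Dusp14, Nr3c1, Fkbp5 and Tsc22d3 were named after their values were seen. The members and lists were chosen with earlier results of these data known.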

Additional observations from a re-analysis of the deposited data

How the results depend on the processing

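Of 515 values of the Klf genes under other analyses, 479 kept their direction and their side of the threshold, 14 lost the call, 11 gained it and 11 changed sign. Most of the 479 were values not called in either analysis. All 14 losses were of the 3 calls in ONC against Ctrl. These calls were kept in 12 of 19 analyses for Klf6, 14 of 19 for Klf9 and 17 of 19 for Klf13. The number of Klf genes called in ONC against Ctrl was 3 as reported, 1 with ONC columns 3 and 6 summed, 0 with column 5 alone and 0 to 5 with a library left out. In CKO against ONC it was 0 as reported, 1 by DESeq2 and 0 to 5 with a library left out, and in CKO against Ctrl it was 0 throughout. Klf3 in ONC against Ctrl was -0.0074 (log2) with upper quartile scaling and -0.30 to 0.30 with a library left out, negative without column 5 or Ctrl replicate 1. With column 5 alone, Klf7 was -0.057, Klf12 -0.087 and Klf16 -2.15 in ONC against Ctrl, and Klf3 was -0.28 and Klf16 2.39 in CKO against ONC. In CKO against Ctrl with a library left out, Klf9 was -0.022 to 0.29 and Klf16 -0.11 to 0.59, both lowest without CKO replicate 3, and Klf10 was -0.017 to 0.31, lowest without Ctrl replicate 3. None of these values was called, and the cause was not tested.

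Genes called in ONC against Ctrl numbered 4080 as reported, 1939 with columns 3 and 6 summed, 1165 with column 5 alone and 1783 to 7644 with a library left out. In CKO against ONC they numbered 137 (93 higher, 44 lower) as reported, 2261 by DESeq2, 311 with upper quartile scaling (166 higher, 145 lower), 496 by library totals (210 higher, 286 lower), 790 with no filter, 370 with a stricter filter, 275 without assembled loci, 2 with the 2 groups alone, 2 with columns 3 and 6 summed, 9 with column 5 alone, and 2 to 6049 with a library left out. In CKO against Ctrl they numbered 1409 (684 higher, 725 lower) as reported, 520 higher and 912 lower with upper quartile scaling, 538 higher and 909 lower by library totals, 2300 by DESeq2, 2976 with the 2 groups alone, 2889 with column 5 alone, and 464 to 3524 with a library left out. Library totals moved the median of all genes in CKO against ONC to -0.13.

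The shared replicate numbers of CKO and Ctrl did not pair the libraries: deviations of same-numbered libraries correlated at r = -0.04, -0.003 and 0.05 over 9343 genes. With the replicate block, 0 Klf genes and 2711 genes were called, against 2976 for the same groups without it. No paired analysis was possible for ONC because its columns carry other numbers than the labels. The called list genes were put through the same analyses after the data were seen, and none changed sign. Summed per kb of exon, Klf6 and Klf7 came to 6.94 (CKO), 9.89 (ONC) and 6.75 (Ctrl), and Klf4, Klf9 and Klf13 to 14.4 (CKO), 20.1 (ONC) and 12.5 (Ctrl). The lone ONC library was assumed to vary like the others. Counts below about 20 limit Klf2 and Klf4.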
